A study of Mus musculus with 12 samples.

Results

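The replication-dependent histone genes of the mouse encode the core histones H2A, H2B, H3 and H4 and the linker histone H1 that package new DNA. They were taken as all features whose symbol begins with Hist1h, Hist2h, Hist3h or Hist4h, which gave 67 of the 32285 features in the files. Of these, 54 belong to the Hist1 cluster on chromosome 13, 10 to Hist2 on chromosome 3, 2 to Hist3 on chromosome 11 and 1 to Hist4 on chromosome 6. By family there are 6 genes for H1, 18 for H2A, 18 for H2B, 12 for H3 and 13 for H4.

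Replication-dependent histone genes are transcribed mainly in S phase, when the cell copies its DNA. Their mRNAs are unusual in that they normally end in a conserved stem-loop, bound by the stem-loop binding protein SLBP, instead of a poly(A) tail. Some members can also be made as polyadenylated transcripts, for example in cells that leave the cell cycle. A protocol that primes reverse transcription on poly(A) is therefore not designed to capture the stem-loop form, and the data were examined for how much of each gene it counted in each class of cells.

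The data are single-cell RNA sequencing of mouse fetal gonads at E12 (23 ± 3 tail somites), from 12 libraries. WT, -KTS KO and +KTS KO embryos of either sex (XX or XY) make 6 groups of 2. WT1 is made as splice forms with or without the 3 amino acids KTS. The -KTS KO embryos (-KTS-/-) cannot make the form without KTS. The +KTS KO embryos (+KTS-/+KTS-), a model of Frasier syndrome, cannot make the form with KTS, and all lines were kept on a mixed B6CBAF1/JRj background. The study calls the replicates independent and lists embryos for each library separately, with the mesonephros removed and, by its description, gonads of more than 1 embryo pooled for -KTS KO, although its sample list gives a single embryo for 1 XX -KTS KO library. In the 4 KO groups the listed tail somites differ between the replicates. Litters are not given in the sources used here, and p-values measure the spread between these libraries.

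Library totals ran from 108111924 to 147968666 unique molecular identifiers (UMIs, each one captured molecule). After filtering, 76976 cells were kept, of which 66149 were gonadal somatic cells and 7099 germ cells, the latter named from Pou5f1, Dazl, Ddx4 and other germ markers. The gonadal somatic class includes 3 clusters led by genes of other tissues. They hold 725 cells led by Hoxc10, Hoxa10 and Alx1 (98.8% from XY +KTS KO replicate 2), 100 led by Actc1, Myog and Mylpf (100% from that library) and 53 led by Pf4, Ppbp and Gp9 (37.7% from it). Outside both classes, 72 cells were named mesonephric duct and tubule, 98.6% of them from XY +KTS KO replicate 2. Any pair of libraries shared between 6 and 46 cell barcodes, at most 0.451% of the smaller one. Levels are given as CPM, the counts-per-million of a gene among all UMIs of a class of cells in a library. Wt1 itself, which the 3′ counts cannot split into its splice forms, stood at 158 to 309 CPM in the gonadal somatic cells of the 12 libraries and at 1.62 to 10.6 in germ cells. Each molecule is counted once near its 3′ end, so these levels are not scaled by gene length. A lower level in a sum of cells can come from fewer cells with the transcript or from less of it per cell. The sums do not separate these, and the counts of single members per cell were not examined.

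The gene models show which members could be read at a poly(A) site beyond the stem-loop. Under the GENCODE M21 annotation of GRCm38 (the mm10 build that the files use), the histone 3′ stem-loop motif was searched on the transcript strand of each gene as a pattern in which some letters are fixed and the others free. It was found in 46 of the 67 members, or 68.7%, against 0.412% of 21834 other protein-coding genes. The stem-loop windows below are those of Hist1h2ap, Hist3h2ba, Hist1h3c and Hist1h4d, which have the highest mean in gonadal somatic cells of their core histone families, and of Hist1h2ae and Hist3h2a, with the motif in capitals.

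Hist1h2ap, chr13:21833026-21833049, minus strand: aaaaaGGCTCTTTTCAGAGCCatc
Hist1h2ae, chr13:23570663-23570688, minus strand: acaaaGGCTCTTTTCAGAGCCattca
Hist3h2ba, chr11:58949344-58949369, plus strand: ccaaaGGCTCTTTTCAGAGCCacctt
Hist3h2a, chr11:58955167-58955192, plus strand: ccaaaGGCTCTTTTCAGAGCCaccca
Hist1h3c, chr13:23745042-23745067, minus strand: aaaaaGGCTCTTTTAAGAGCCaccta
Hist1h4d, chr13:23581945-23581970, plus strand: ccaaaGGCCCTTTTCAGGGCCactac

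The H2A and H2B windows hold the same motif letters, and those of Hist1h3c and Hist1h4d hold other letters at positions that the motif leaves free. The gene model ended within 60 bases of the stem-loop for 22 members and ran further for 24. The remaining 21 models held no stem-loop, and 15 of these stopped less than 20 bases after the stop codon, 13 of them at 0 bases. The absence there says only that the letters are not in the model. A poly(A) signal, AATAAA or ATTAAA in the last 50 bases, was present in 17 members, or 25.4%, against 78.0% of other protein-coding genes. The models that run further include those of Hist1h2ae (151 bases past the stem-loop), Hist1h1e (1153), Hist3h2ba (169), Hist3h2a (1643), Hist1h1c (840), Hist1h4d (770), Hist1h4i (330), Hist1h3c (74) and Hist1h1d (4884). Of these, Hist1h2ae, Hist3h2ba, Hist3h2a, Hist1h1c and Hist1h4i have a signal in the last 50 bases. Hist3h2a also overlaps Trim17 on the same strand.

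An inner run of A can also prime an oligo(dT) primer, and runs of at least 8 A were present in 7 members (10.4%, against 28.4% of other protein-coding genes). These are Hist1h2ap, Hist1h2ao, Hist1h2ae, Hist1h2be, Hist1h2ac, Hist1h2bc and Hist1h1d. The runs of Hist1h2ap, Hist1h2ao and Hist1h2ae lie before the stem-loop. Those of Hist1h2be, Hist1h2ac and Hist1h1d lie past it, and so outside an mRNA that ends there. The Hist1h2bc model holds no stem-loop. The windows below are shown because the 2 H2A genes with the most UMIs carry such a run next to the stem-loop, and because Hist1h2ao carries the same letters as Hist1h2ap. The run of A is in capitals.

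Hist1h2ap, chr13:21833038-21833063, minus strand: cgaaaagAAAAAAAAAAAAggctctt
Hist1h2ao, chr13:21810879-21810904, plus strand: cgaaaagAAAAAAAAAAAAggctctt
Hist1h2ae, chr13:23570679-23570704, minus strand: taatctcgtAAAAAAAAcaaaggctc

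The run of 12 A in Hist1h2ap meets the stem-loop directly, and the run of 8 A in Hist1h2ae lies 4 bases before it. The 7 members with a run held 45.4% of all member UMIs in gonadal somatic cells and 49.6% in germ cells, most of it Hist1h2ap and Hist1h2ae. Levels in the other 5 were far apart, and where the counted reads were primed was not tested. Hist1h2ao, with the same window as Hist1h2ap, stood at only 0.276 ± 0.0967 CPM (SD, n = 12 libraries) in gonadal somatic cells. The 2 genes are near-identical copies, with 100% of the read-length windows in the last 400 bases of Hist1h2ap and 90.7% of those of Hist1h2ao found in a transcript of another gene. How reads that fit more than 1 of these copies were counted or left out is therefore uncertain. The same holds for 28 members in all with more than 50% of their windows shared, which held 38.1% of member UMIs in gonadal somatic and 45.5% in germ cells. Another 21 members shared no window and held 40.3% and 33.3%. All tail windows of Hist1h1e are found in a transcript of Hist1h2be, which overlaps it on the same strand, or of Gm11398. How much of its expression was counted is therefore uncertain too.

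**Figure D1:**
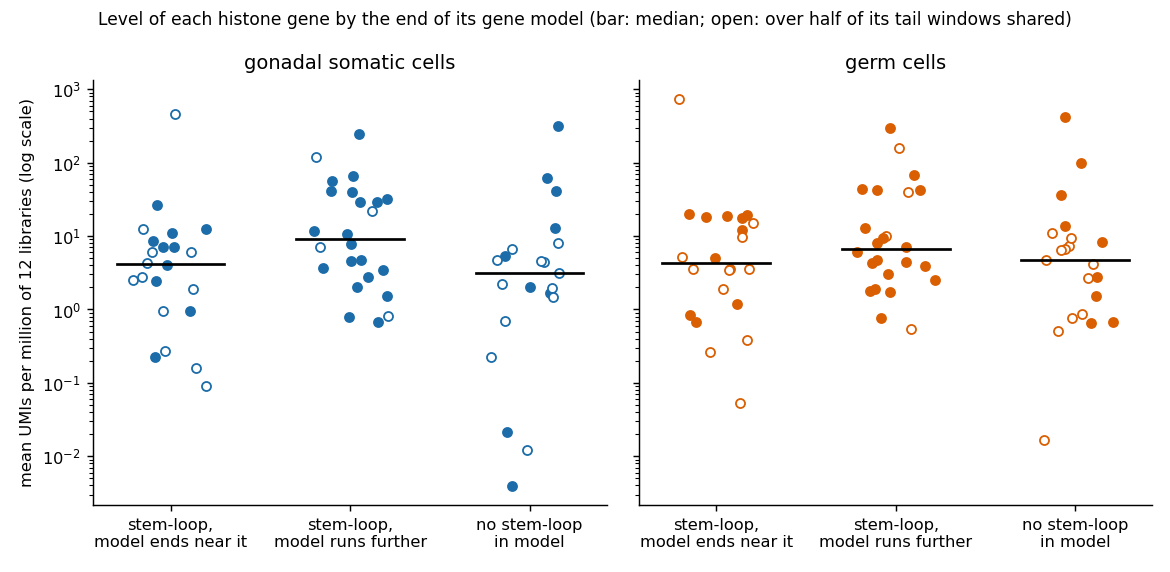
Mean level of each of the 67 histone genes over 12 libraries (CPM, log scale) in gonadal somatic cells (left) and germ cells (right), by whether the gene model ends within 60 bases of the stem-loop, runs further or holds no stem-loop. Bars are medians, at 4.12, 9.27 and 3.11 in gonadal somatic cells, and open points are genes with more than 50% of their tail windows shared with another gene.

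Members whose models run beyond the stem-loop held 41.3% of member UMIs in gonadal somatic cells and 33.7% in germ cells. Those whose models end near it held 32.2% and 38.8%, and those without a stem-loop held 26.5% and 27.5%. The highest gene of each kind was far above its median, as the plot of levels by gene model end shows. Median levels were 9.27, 4.12 and 3.11 CPM in gonadal somatic cells and 6.58, 4.26 and 4.78 in germ cells, in the same order.

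Each of the 67 genes had a UMI in each class over the 12 libraries, the fewest being 4 for Hist1h2ba in gonadal somatic and 5 for Hist1h2bq in germ cells, but a few genes made up most of the sum. The 67 genes together gave 1689314 UMIs in gonadal somatic and 539353 in germ cells. In gonadal somatic cells 53 members averaged at least 1 CPM and 31 at least 5, and the corresponding counts in germ cells were 54 and 33. The gene with the most UMIs held 25.7% of the somatic and 31.8% of the germ sum, and the 10 highest held 80.5% and 84.2%. A further 11 members stayed under 1 CPM in both classes. The sum over all members was 1800 ± 766 CPM (SD, n = 12) in gonadal somatic and 2310 ± 1010 in germ cells. In comparison, 11 histone variants taken as replication-independent, among them H3f3a, H3f3b, H2afz and H2afx, summed to 10400 ± 1160 and 6430 ± 645. The members thus reached 8.2% to 44.9% of the variants' UMIs in gonadal somatic and 15.9% to 77.0% in germ cells. The somatic upper limit is that of XY +KTS KO replicate 1, and the next highest library stood at 26.6%. The sum was 1860 ± 1150 in endothelial cells, 1240 ± 579 in erythrocytes and 1990 ± 955 in immune cells. Of the 2 gonadal somatic clusters with few UMIs per cell, 1 of 2431 cells, led by histone genes among others, stood at 6530 CPM and 1 of 468 cells at 497. Together they ranged from 1610 in XY WT replicate 1 to 16000 in XY +KTS KO replicate 1, with the next highest at 3660 in XX -KTS KO replicate 2. Without these 2 clusters the somatic sum was 1750 ± 663. Of the 2 germ clusters, 1 of 1141 cells had a median of only 4546 UMIs and came to 54.3% from XX -KTS KO replicate 2. It stood at 3920 CPM against 2220 in the other. It lay just above the limit for a shallow cluster, so the alternative without shallow clusters left out 0 germ cells.

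**Figure D2:**
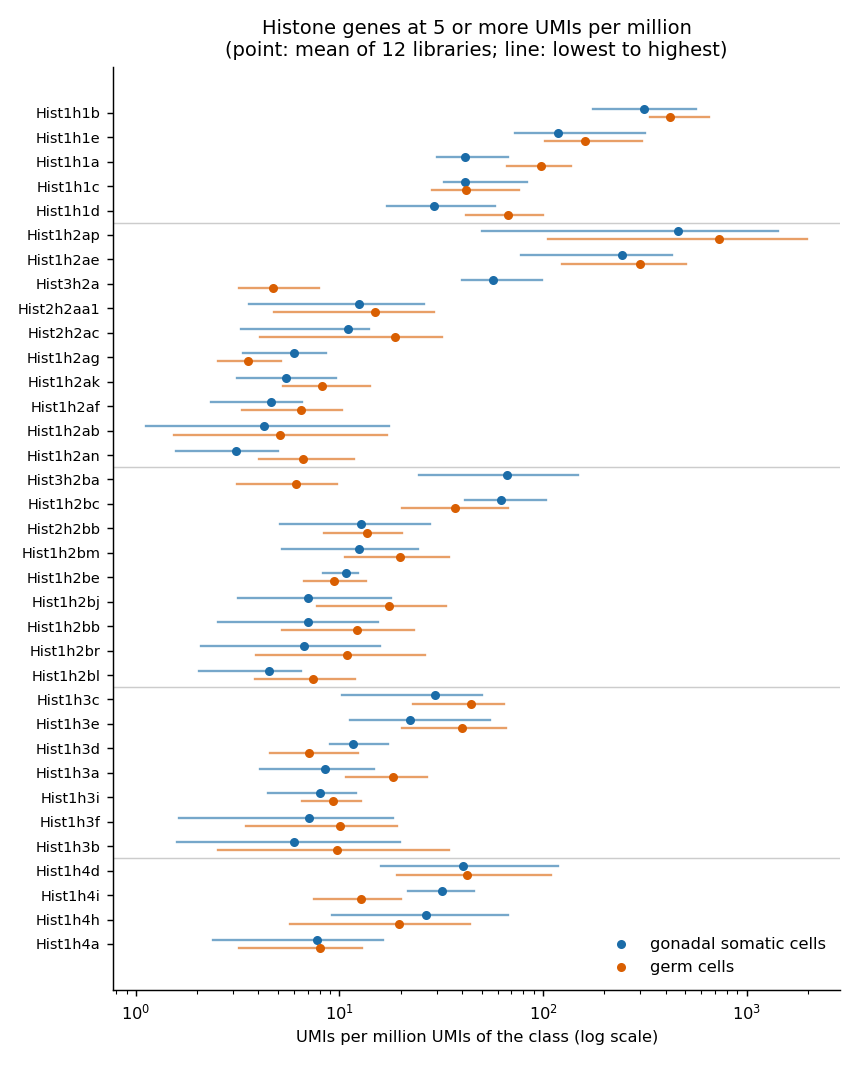
Mean level (points) and range from the lowest to the highest of 12 libraries (lines) of the 35 histone genes that averaged at least 5 CPM in either class, on a log scale, ordered by family from H1 to H4. Hist1h2ap has a mean of 463 in gonadal somatic and 736 in germ cells and the widest range among the genes above 100, while Hist3h2a and Hist3h2ba are lower in germ cells without overlap.

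The linker histones H1 held 30.2% of member UMIs in gonadal somatic and 34.3% in germ cells. Hist1h1b, which encodes H1.5, was the highest, and its annotated model ends at the stop codon with no stem-loop. Its XX gonadal somatic cells stood at 278 and 207 CPM (WT replicates 1 and 2), 281 and 263 (-KTS KO) and 291 and 299 (+KTS KO). The XY values were 475 and 379 (WT), 198 and 176 (-KTS KO) and 567 and 357 (+KTS KO). XY WT and XY +KTS KO were the high groups and XY -KTS KO the low one, with no overlap between XY -KTS KO and any other group. The nearest values were 198 in XY -KTS KO replicate 1 and 207 in XX WT replicate 2. How many other genes separate the groups in this way was not counted. In germ cells Hist1h1b was more even, at 334 to 446 in 11 libraries and 653 in XY +KTS KO replicate 1. The other H1 genes averaged, in gonadal somatic and germ cells, 119 ± 65.9 and 160 ± 59.6 (Hist1h1e), 41.5 ± 10.7 and 98.1 ± 24.8 (Hist1h1a), 41.4 ± 13.7 and 42 ± 13.3 (Hist1h1c) and 29.2 ± 10.7 and 67.1 ± 21.8 (Hist1h1d). Hist1h1t, the testis-specific linker histone, averaged 0.681 ± 0.354 and 2.51 ± 1.01.

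The H2A genes held the largest part, 45.9% in gonadal somatic and 48.0% in germ cells, and Hist1h2ap alone made up 56.0% and 66.1% of the family. Hist1h2ap in XX gonadal somatic cells stood at 74.5 and 353 CPM (WT), 542 and 1010 (-KTS KO) and 306 and 339 (+KTS KO), and in XY at 201 and 185, 49.9 and 411, and 1420 and 670. The germ cells of the same libraries gave 141 and 929, 723 and 1550, and 436 and 560 in XX, and 187 and 248, 106 and 899, and 1990 and 1060 in XY. The libraries low in one class were low in the other, and the 2 XX WT and the 2 XY -KTS KO libraries were far apart. Hist1h2ae followed, with a mean of 244 and a range of 78.2 to 431 in gonadal somatic and 300 ± 145 in germ cells. Hist3h2a, an H2A gene outside the large clusters, averaged 57.0 ± 16.6 and 4.71 ± 1.25. The remaining H2A genes at 5 or more were Hist2h2aa1 (12.5 ± 7.34 and 14.9 ± 8.41), Hist2h2ac (11.0 ± 2.91 and 18.7 ± 7.53), Hist1h2ag (5.99 ± 1.7 and 3.54 ± 0.802), Hist1h2ak (5.43 ± 1.76 and 8.2 ± 2.83), Hist1h2af (4.63 ± 1.26 and 6.47 ± 2.08), Hist1h2ab (4.25 ± 4.42 and 5.13 ± 4.25) and Hist1h2an (3.11 ± 1.11 and 6.61 ± 2.44).

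H2B genes held 11.8% of the somatic but 6.93% of the germ sum. Hist3h2ba, which lies beside Hist3h2a on chromosome 11, was the highest in gonadal somatic cells. Its XX values were 37.9 and 55.1 (WT), 77.4 and 129 (-KTS KO) and 47.8 and 41.1 (+KTS KO), and its XY values 24.7 and 33.0, 149 and 88.5, and 44.4 and 73.3. All 4 -KTS KO libraries were above all 8 others, though narrowly, at 77.4 in XX -KTS KO replicate 1 against 73.3 in XY +KTS KO replicate 2. How many other genes separate these libraries in the same way was not counted. Hist3h2ba in germ cells lay between 3.15 and 9.67. Hist1h2bc averaged 61.9 ± 18.5 and 36.8 ± 13.4. Then came Hist2h2bb (12.7 ± 6.09 and 13.7 ± 4.31), Hist1h2bm (12.5 ± 4.6 and 19.9 ± 7.43), Hist1h2be (10.8 ± 1.31 and 9.38 ± 2.54), Hist1h2bj (7.04 ± 3.85 and 17.5 ± 8.58), Hist1h2bb (7.02 ± 3.81 and 12.2 ± 6.38), Hist1h2br (6.67 ± 4.19 and 10.9 ± 7.14) and Hist1h2bl (4.49 ± 1.46 and 7.4 ± 2.63).

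H3 and H4 genes held 5.51% and 6.63% of the somatic sum and 6.52% and 4.2% of the germ sum. Among H3 genes Hist1h3c averaged 29.3 ± 9.7 in gonadal somatic and 44.1 ± 14.3 in germ cells and Hist1h3e 22.3 ± 11.4 and 39.8 ± 16.7. They were followed by Hist1h3d (11.7 ± 2.71 and 7.08 ± 2.03), Hist1h3a (8.47 ± 2.59 and 18.3 ± 4.89), Hist1h3i (8.03 ± 1.88 and 9.34 ± 1.74), Hist1h3f (7.08 ± 4.57 and 10.1 ± 5.66) and Hist1h3b (5.99 ± 5.07 and 9.71 ± 8.97). Among H4 genes the values were 40.3 ± 27.9 and 42.1 ± 25.2 for Hist1h4d, 31.8 ± 9.28 and 12.7 ± 4.06 for Hist1h4i, 26.5 ± 18.6 and 19.6 ± 12.6 for Hist1h4h, and 7.73 ± 4.08 and 8.0 ± 3.57 for Hist1h4a. Every other H3 and H4 gene was under 5 in both classes.

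The 12 libraries did not form a single population for several of these genes. XX WT replicate 1, both XY WT libraries and XY -KTS KO replicate 1 stood apart in the ribosomal protein pseudogene Rpl9-ps6, at 160 to 186 CPM in gonadal somatic cells against 59.7 to 88.6 in the other 8. The split was made after the data were seen, and neither the labels nor the study's methods name what differed between these libraries. They carry the 4 lowest of the study's own library numbers, which are not described as a batch. Hist1h2ap lay between 49.9 and 201 in the high Rpl9-ps6 set and between 306 and 1420 in the other, without overlap. The same gap was present in germ cells (106 to 248 against 436 to 1990), endothelial cells (80.1 to 248 against 314 to 2430) and erythrocytes (27.5 to 99.8 against 192 to 855). Hist1h1b overlapped between the sets, at 198 to 475 against 176 to 567 in gonadal somatic cells.

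Of the 31 members at 5 or more CPM, 6 did not overlap between the sets in gonadal somatic cells, and in germ cells 8 of 33 did not, all of them lower in the high Rpl9-ps6 set. Of all features at that level, 3.27% of 9855 and 1.03% of 8608 were lower in that set without overlap. The somatic genes were Hist2h2aa1, Hist1h2ap, Hist1h4h, Hist1h3f, Hist1h3b and Hist1h4a, and the germ genes were Hist2h2aa1, Hist1h2ap, Hist1h2br, Hist1h4h, Hist1h2af, Hist1h2ae, Hist1h2ab and Hist1h3b. Within a group, Hist1h2ap differed between replicates by up to 8.24-fold in gonadal somatic and 8.48-fold in germ cells, in both cases in XY -KTS KO, whose 2 libraries fall in different sets. Both XY WT libraries are in 1 set and both XY +KTS KO libraries in the other, so genotype and set cannot be told apart in that comparison.

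**Figure D3:**
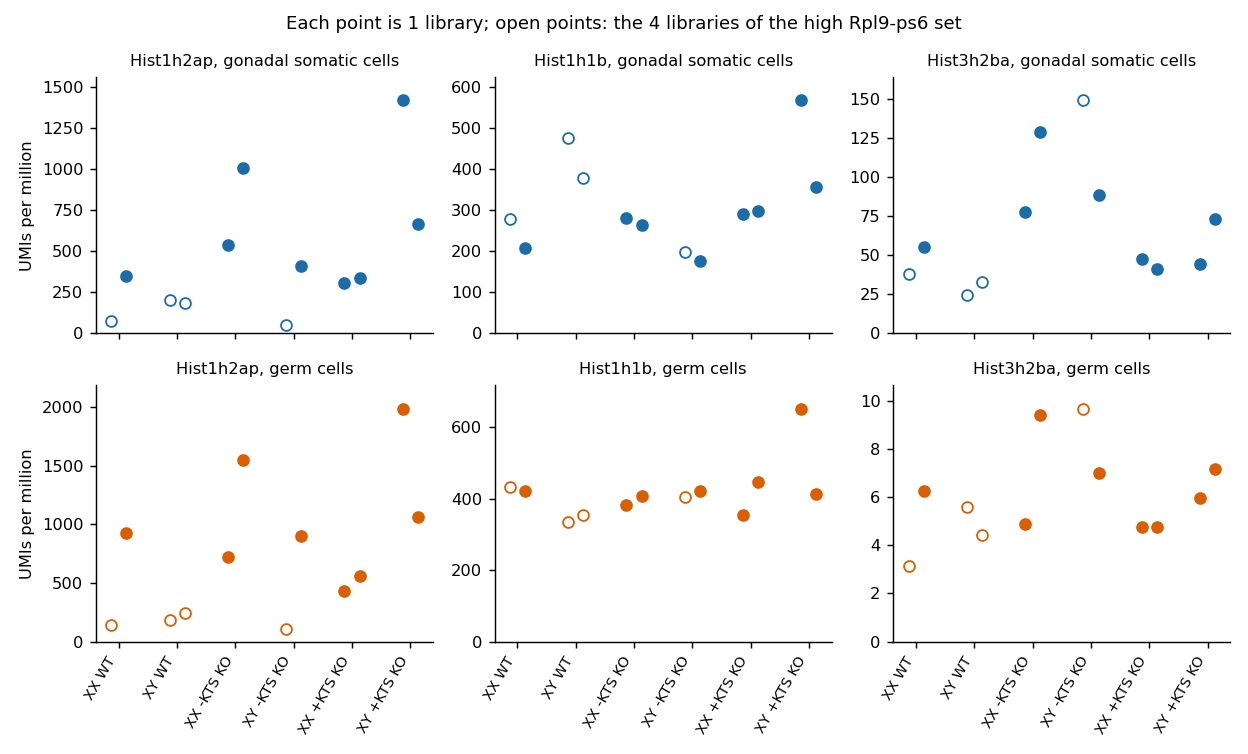
Level of Hist1h2ap, Hist1h1b and Hist3h2ba in each library (CPM, linear axes from 0) for gonadal somatic cells (top) and germ cells (bottom), with the 6 groups on the horizontal axis. Open points are the 4 libraries of the high Rpl9-ps6 set, which lie at 49.9 to 201 for Hist1h2ap in gonadal somatic cells against 306 to 1420 for the others, while the Hist1h1b values of the sets overlap.

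To relate the counts to DNA replication, the cells of each class and library were ranked by the share of their UMIs that came from 40 S-phase genes, none of them a histone gene, and split into 3 equal parts. The S-high cells were compared with the S-low cells of the same libraries. Summed over members, gonadal somatic S-low, middle and S-high cells stood at 611 ± 239, 707 ± 230 and 3640 ± 1690 CPM (SD, n = 12). S-high exceeded S-low in 12 of 12 libraries, by 2.13-fold to 9.15-fold with a median of 6.58-fold. The lowest ratio was that of XY -KTS KO replicate 1 (1620 against 762 CPM), and without it the lowest was 4.48. Germ cells gave 756 ± 339, 2140 ± 922 and 4150 ± 1780, and a ratio of 4.17 to 7.99 with a median of 5.45, again in 12 of 12 libraries. Most of the somatic step thus lay between the middle and the S-high cells, whereas the germ values rose across all 3 parts.

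Among gonadal somatic cells 54 of 59 members tested rose in S-high cells and 4 fell (edgeR quasi-likelihood test with library as block, Benjamini-Hochberg adjusted p under 0.05). Of all 14166 genes tested, 73.8% were called, 36% as higher and 37.9% as lower. The median log2 fold change was 2.58 for the members and -0.02 for all genes. Hist1h2ap went from 53.0 ± 63.0 to 1100 ± 938 CPM, a log2 fold change of 4.57 ± 0.12 (SE, adjusted p = 7.89e-13). Hist1h1b went from 47.1 ± 36.0 to 720 ± 221 (4.10 ± 0.13, adjusted p = 3.86e-12) and Hist1h1a from 5.04 ± 1.68 to 97.1 ± 22.9 (4.29 ± 0.08, adjusted p = 3.5e-14). The largest change was that of Hist1h2af, from 0.147 ± 0.0609 to 11.2 ± 3.1 (6.25 ± 0.16), followed by Hist1h3b (4.79 ± 0.18). Hist1h3c rose by 4.34 ± 0.12, Hist1h2an by 4.06 ± 0.15, Hist1h2ab by 4.02 ± 0.14, Hist2h2bb by 3.86 ± 0.13, Hist1h2bn by 3.73 ± 0.13 and Hist1h2ae by 3.70 ± 0.10, and Hist1h2bm by 4.0 ± 0.09.

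The 4 members that fell in S-high somatic cells were Hist3h2a, Hist3h2ba, Hist1h2bc and Hist2h3c2. Hist3h2a fell from 74.8 ± 26.4 to 40.3 ± 8.63 (-0.84 ± 0.09, adjusted p = 7.11e-07) and Hist3h2ba from 83.3 ± 50.2 to 49.6 ± 27.1 (-0.69 ± 0.07, adjusted p = 8.31e-07), each in 12 of 12 libraries. The change in Hist1h2bc was -0.56 ± 0.23 (adjusted p = 0.0384) and went down in most but not all libraries, since S-high was above S-low in 5 of 12. Its call was lost in 7 of 19 alternatives, namely log-normalized clustering, without shallow and other-tissue clusters, and without XY WT replicate 1 or any 1 of the 4 -KTS KO libraries. Hist2h3c2, at about 1 CPM, fell by 1.21 ± 0.29 on the log2 scale. Hist1h1c rose by only 0.63 ± 0.13, from a mean of 35.3 to 53.8, and Hist2h3c1 did not pass the test (0.48 ± 0.28, adjusted p = 0.133).

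**Figure D4:**
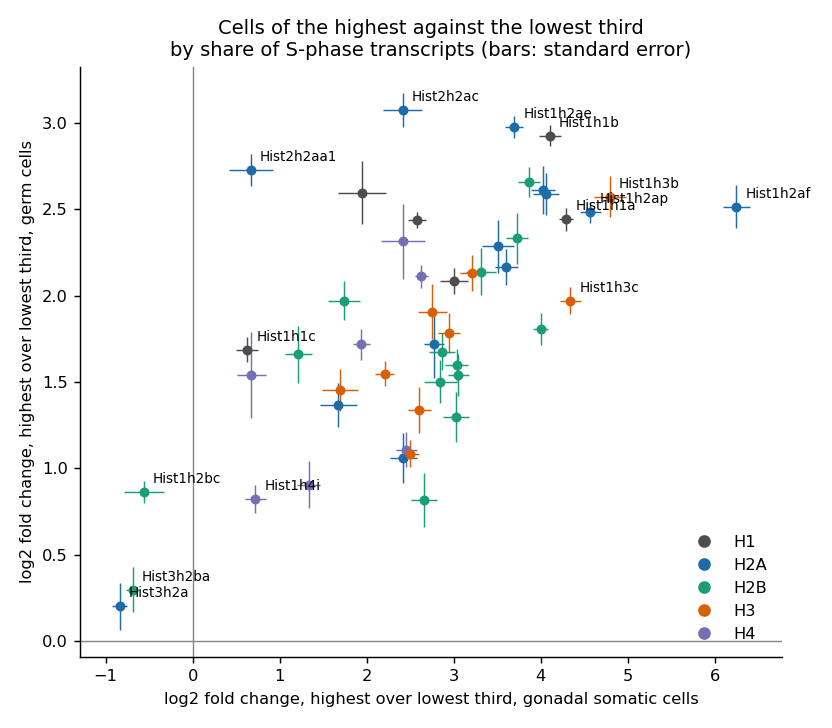
Log2 fold change of S-high over S-low cells in gonadal somatic cells (horizontal) and germ cells (vertical) for the histone genes tested in both, coloured by family, with bars for the standard error. Hist3h2a and Hist3h2ba lie at -0.84 and -0.69 on the somatic axis and at 0.20 and 0.30 on the germ axis, apart from most other members, which lie above 1 on both.

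In germ cells 49 of 50 members tested rose in S-high cells and none fell. Of all 10533 genes 60.1% were called, 28.6% as higher, and the median log2 fold change was 1.86 for the members and -0.01 for all genes. The largest were Hist1h2aa (3.97 ± 0.21), Hist2h2ac (3.07 ± 0.10), Hist1h2ae (2.98 ± 0.07) and Hist1h1b (2.92 ± 0.06), then Hist2h2aa1 (2.73 ± 0.09), Hist2h2bb (2.66 ± 0.09), Hist1h2ab (2.61 ± 0.14), Hist1h1t (2.60 ± 0.18), Hist1h2an (2.59 ± 0.12), Hist1h3b (2.57 ± 0.12), Hist1h2af (2.51 ± 0.12) and Hist1h2ap (2.48 ± 0.06). Hist1h1b went from 99.8 ± 24.2 to 810 ± 158 and Hist1h2ap from 233 ± 205 to 1310 ± 1020. Hist1h2bc, which fell in somatic cells, rose here from 24.6 ± 9.4 to 48.5 ± 17.3 (0.86 ± 0.06, adjusted p = 1.08e-14). Hist3h2a was the member that did not pass (0.20 ± 0.14, adjusted p = 0.2), and Hist3h2ba passed narrowly at 0.30 ± 0.13 (adjusted p = 0.0475). The Hist3h2ba call was kept in 6 of 19 alternatives and lost in 12, and with doublets kept its value was -0.57.

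The S-high and S-low cells of the 2 classes were not alike in cell cycle. On average S-low germ cells held 0.32% of their UMIs in the S-phase list, close to the 0.354% of somatic S-high cells. Somatic S-low cells held 0.0656% and germ S-high cells 0.583%. The sizes of the S-high to S-low changes therefore cannot be compared between the classes. Somatic S-high cells also held more of 24 G2/M genes, at 0.335% of UMIs against 0.0417%, whereas germ S-high cells held less, at 0.352% against 0.642%. All 40 S-phase genes rose in both, by the ranking itself. Of 16 genes for histone transcription, stem-loop processing and chaperones, 12 rose and 2 fell in somatic and 11 rose and 2 fell in germ cells. The largest changes in somatic cells were those of Asf1b (3.64 ± 0.12), Chaf1a (2.49 ± 0.04) and Chaf1b (2.17 ± 0.06), which are histone chaperones. In germ cells they were those of Chaf1b (1.53 ± 0.06), Slbp (1.17 ± 0.04) and Casp8ap2 (1.07 ± 0.04), a protein needed for histone gene expression in S phase. Slbp, named here for its role and with its value already seen, rose by 0.87 ± 0.04 in somatic cells. The replication-independent variants moved less, with a median of 0.80 (9 of 11 higher and 1 lower) in somatic and -0.12 (1 higher and 4 lower) in germ cells. The S-high cells were also somewhat deeper in somatic cells, with a median of 15500 ± 3110 UMIs per cell against 12000 ± 2760. The S-phase share also ran from 0.0678% to 0.376% over the gonadal somatic clusters that were not shallow. The S-high and S-low cells can thus come from different clusters. The part of depth, of cluster and of the other phases in the differences was not tested.

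Germ cells were then compared with the gonadal somatic cells of the same 12 libraries. Of 63 members tested, 39 were higher and 12 lower in germ cells. The test called 87.6% of all 15398 genes, 40.9% as higher and 46.6% as lower, so that a call is common in this comparison. The median log2 fold change was 0.46 for members and -0.12 for all genes. The sum over members was higher in germ cells in 11 of 12 libraries, with a ratio from 0.736 to 2.01 and a median of 1.25.

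**Figure D5:**
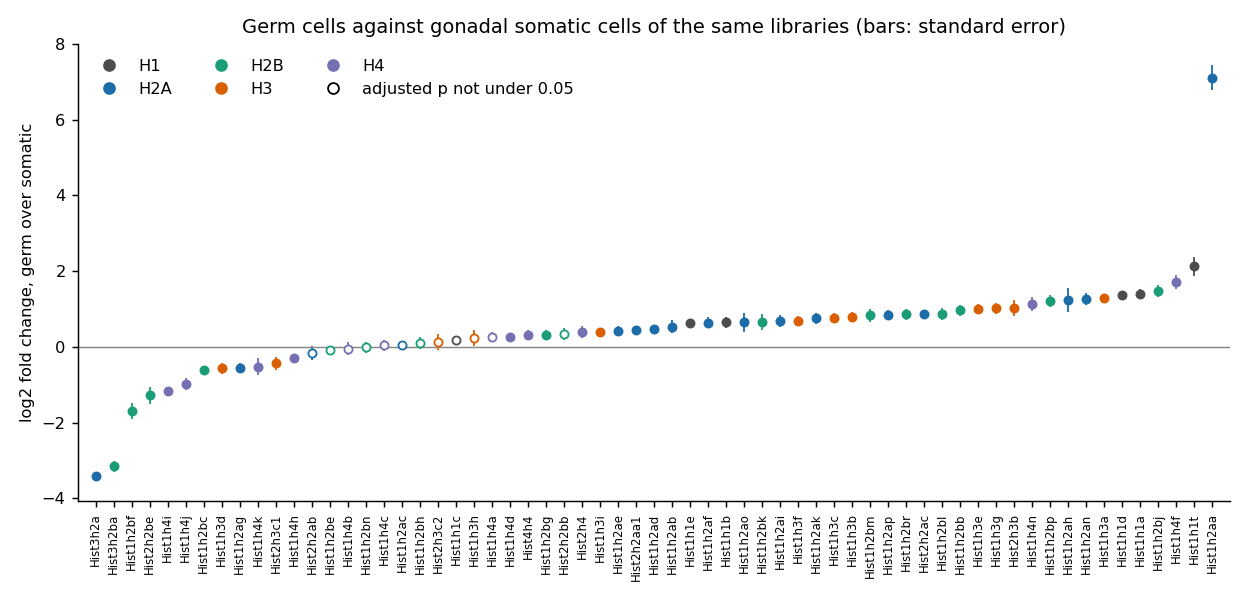
Log2 fold change of germ over gonadal somatic cells for the 63 histone genes tested, ordered by value and coloured by family, with bars for the standard error and open points where the adjusted p was not under 0.05. Hist3h2a and Hist3h2ba form the low end at -3.42 and -3.16 and Hist1h2aa the high end at 7.11.

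The largest difference was that of Hist1h2aa, a testis-specific H2A gene. Hist1h2aa had 649 UMIs in germ cells, with between 15 and 141 in each library, out of 235685067 in all, and 19 of 941880327 in gonadal somatic cells, with 0 to 6 in each. Its log2 fold change was 7.11 ± 0.34 (edgeR, adjusted p = 2.5e-11), and it was higher in germ cells in 12 of 12 libraries. With so few somatic UMIs, Hist1h2aa could pass the filter on low counts only through the germ sums. The filter thus fixed the direction of this test, which is no separate support. Its neighbour Hist1h2ba, a testis-specific H2B gene, was too low for the test, with 150 UMIs in germ and 4 in gonadal somatic cells. Hist1h1t, the testis-specific H1, was 2.13 ± 0.26 higher (adjusted p = 1.34e-06). Both Hist1h2aa and Hist1h1t were counted in XX as well as XY germ cells, at 1.39 to 5.56 and 1.82 to 3.8 CPM in the 6 XX libraries.

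Other members higher in germ cells were Hist1h4f (1.71 ± 0.19), Hist1h2bj (1.47 ± 0.16), Hist1h1a (1.41 ± 0.13), Hist1h1d (1.37 ± 0.12), Hist1h3a (1.29 ± 0.11) and Hist1h2an (1.26 ± 0.16), each in 12 of 12 libraries. The most counted members differed less, with Hist1h2ap at 0.85 ± 0.11, Hist1h1b at 0.64 ± 0.14, Hist1h1e at 0.63 ± 0.12 and Hist1h2ae at 0.42 ± 0.14. Hist1h1c did not pass (0.18 ± 0.10, adjusted p = 0.1).

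The members lower in germ cells were led by Hist3h2a (-3.42 ± 0.10, adjusted p = 1.72e-13) and Hist3h2ba (-3.16 ± 0.14, adjusted p = 1.37e-11), followed by Hist1h2bf (-1.70 ± 0.21), Hist2h2be (-1.28 ± 0.22) and Hist1h4i (-1.18 ± 0.09). Each of these was lower in 12 of 12 libraries. All of Hist3h2a's germ values, 3.22 to 7.91 CPM, lay below its lowest somatic value of 39.8.

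Germ and somatic cells also differed in the cell cycle lists. Germ cells held 4440 ± 350 CPM of the S-phase list against 1970 ± 266, with 37 genes higher and 3 lower, and all 24 G2/M genes were higher. Of the 16 transcription, processing and chaperone genes 13 were higher and 2 lower, led by Zfp473 (3.44 ± 0.16), a component of the histone processing complex, Asf1b (2.15 ± 0.12), a histone chaperone, and Hinfp (1.45 ± 0.07), an activator of H4 genes. Of the 11 variants 2 were higher and 6 lower. The part of the cell cycle difference in the histone differences was not tested.

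Between genotypes and sexes, 0 to 8 members were called in a comparison. The comparisons with WT of 1 sex use the same 2 WT libraries, as does the comparison of the sexes in WT, so they are not independent. They used edgeR's quasi-likelihood test over 6 groups, with 64 members tested in gonadal somatic and 65 in germ cells. Called or not, 58 of the 64 had a positive fold change in somatic XX -KTS KO (median 0.63 on the log2 scale), 23 in XY -KTS KO (-0.31), 52 in XX +KTS KO (0.31), 42 in XY +KTS KO (0.31) and 15 in XX against XY WT (-0.32). In germ cells these were 47 of 65 (0.36), 62 (0.64), 31 (-0.04), 53 (0.70) and 56 (0.45) in the same order. The median of all genes lay between -0.01 and 0.05. The sets named above are unevenly spread over these groups, since XX WT replicate 1, both XY WT libraries and XY -KTS KO replicate 1 are in the high Rpl9-ps6 set. A fit within the high set has 1 XX WT and 1 XY -KTS KO library, takes its spread from the 2 XY WT libraries and assumes that the single libraries vary likewise. A fit within the low set has 1 XX WT library on the same assumption.

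The gonadal somatic class was also made up of different clusters in different groups. A Sertoli-like cluster gave 19667516 and 17068249 UMIs of the 74506800 and 63868369 of the class in XY WT, but 33174 and 0 where -KTS was lost and 79845 and 0 in XY +KTS KO. Pre-granulosa-like clusters gave 32993195 and 40537538 in XX WT, but 13313 and 23446 where -KTS was lost and 2587527 and 653452 in XX +KTS KO. They gave 33802345 in XY +KTS KO replicate 1 and 1024391 in replicate 2. These values count only clusters that the marker lists named as pre-granulosa. The study describes pre-granulosa clusters in +KTS KO gonads of both sexes, distinct from those of its XX controls. Clusters of 7016 and 1024 cells, with Cyp11a1, Pnmt and Inha among their leading genes, were left unnamed here. Of their cells, 44.9% and 39.5% came from XX +KTS KO replicate 1. Whether these unnamed clusters hold pre-granulosa cells was not tested. Member levels ran from 421 to 5550 CPM over the somatic clusters that were not shallow. The somatic comparisons below are therefore of the whole class, and whether a difference lies within 1 kind of cell was not tested.

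Between the sexes in WT, 3 members were lower in XX than in XY gonadal somatic cells (12.9% of all genes called, 6.16% as higher and 6.76% as lower), namely Hist1h1b (-0.89 ± 0.22, adjusted p = 0.0291), Hist1h1a (-0.74 ± 0.20, adjusted p = 0.0388) and Hist1h2ak (-0.79 ± 0.22, adjusted p = 0.0444). Hist1h1a stood at 31.8 and 31.7 in XX WT and 54.6 and 45.6 in XY WT, and Hist1h2ak at 4.46 and 4.2 against 6.89 and 7.37. No member was higher. Beside this, 17 of 39 S-phase and 16 of 24 G2/M genes were lower in XX and none higher, and the part of the cell cycle was not tested. Without XX WT replicate 2 all 3 lost their calls and 1 other member was called, and without XX WT replicate 1 Hist1h1b alone kept its call. No member was called without XY WT replicate 1. With the Rpl9-ps6 set as a term, or in the high set alone, 3 members were called, but none of these 3 was among them. Hist1h2ak also lost its call with the replicate block, and in 9 of 14 alternatives in all. Hist1h2ap, at 74.5 and 353 against 201 and 185, overlapped and did not pass (0.05 ± 0.84). XY WT replicate 1 also made up 62.0% and 71.7% of the cells of 2 gonadal somatic clusters led by Dkk1, Hsd11b2 and Ntf3. Their part in the comparisons with XY WT was not tested.

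Loss of -KTS in XX left 2 members called in gonadal somatic cells, both higher than in XX WT, against 16.1% of all genes (6.66% higher and 9.4% lower). Hist3h2ba rose by 1.22 ± 0.36 (adjusted p = 0.0484) and Hist1h4k by 1.48 ± 0.39 (adjusted p = 0.0285). Hist1h4k was low throughout, at 0.654 and 1.0 CPM in XX WT and 1.97 and 2.48 in XX -KTS KO. Hist1h2ap had the value 1.94 ± 0.87 and did not pass (adjusted p = 0.169). Only 2 of 40 S-phase genes, both lower, and none of the 24 G2/M genes were called. No call was left without XX WT replicate 1, without either XX -KTS KO library, with the Rpl9-ps6 set as a term, or with the libraries of the low set alone. Without XX WT replicate 2 both of these calls were lost as well, and 1 other member was called. Hist3h2ba lost its call in 10 of 15 alternatives, among them RLE size factors, the replicate block and all kept cells, and Hist1h4k in 6 of 15. Their fold changes stayed positive throughout, at 0.81 to 1.53 for Hist3h2ba and 1.05 to 1.79 for Hist1h4k, and with the set as a term they were 1.28 and 1.05.

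In XY -KTS KO against XY WT, 8 of 64 members (12.5%) were called in gonadal somatic cells, 2 higher and 6 lower. Of all genes 23.3% were called (11% higher and 12.4% lower), so the members were called less often than genes in general. Hist3h2ba rose from 24.7 and 33.0 CPM to 149 and 88.5 (2.02 ± 0.37, adjusted p = 0.00423) and Hist3h2a from 44.6 and 45.1 to 99.4 and 75.4 (0.93 ± 0.19, adjusted p = 0.00643). Hist1h1b fell from 475 and 379 to 198 and 176 (-1.23 ± 0.23, adjusted p = 0.00411) and Hist1h1a from 54.6 and 45.6 to 30.2 and 35.7 (-0.65 ± 0.20, adjusted p = 0.0415). Hist1h2bl fell by 1.49 ± 0.28, Hist1h2ak by 1.04 ± 0.22, Hist1h3d by 0.81 ± 0.16 and Hist1h1t by 1.78 ± 0.46 on the log2 scale. The XY -KTS KO and XY WT libraries did not overlap in any of these genes. This is no separate support, since the genes were picked by the test on the same libraries.

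The S-phase list moved in the same comparison, with 25 of 40 genes lower and none higher, as did the G2/M list with 19 of 24 lower. Of the processing list 5 of 16 were lower and none higher, among them Asf1b (-1.24 ± 0.20), Chaf1a (-0.54 ± 0.11), a subunit of the chaperone that deposits new H3 and H4, and Cstf2 (-0.55 ± 0.14), a cleavage factor. None of the 11 variants was called. The part of the cell cycle in the fall of the histone genes was not tested. The number of members called moved when either XY -KTS KO library was left out. Such a fit has a single XY -KTS KO library, and its calls over all genes are not given here. Whether the members moved more than other genes cannot be read from it. Hist3h2ba and Hist1h1b kept their calls under each of 14 alternatives. Hist1h1a lost its call in 6 and Hist1h1t in 5, both of them with the set as a term, with all kept cells and without XY WT replicate 1 or either XY -KTS KO library. Hist1h2ak and Hist1h3d lost theirs in 2 each and Hist1h2bl and Hist3h2a in 1 each.

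No member passed in XX +KTS KO against XX WT in gonadal somatic cells (edgeR, 4.98% of all genes called, 2.31% as higher and 2.67% as lower). Among the members 4 had an unadjusted p under 0.05, and DESeq2 called 0. Hist1h2ap was at 306 and 339 CPM against 74.5 and 353 (0.65 ± 0.85). No gene of the S-phase, G2/M, processing or variant lists was called. Without XX WT replicate 2, 1 member was called.

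In XY +KTS KO against XY WT, 3 members passed in gonadal somatic cells, against 12.2% of all genes (5.95% higher and 6.25% lower). Hist1h4h rose from 10.2 and 11.5 CPM to 67.1 and 27.4 (2.00 ± 0.52, adjusted p = 0.0347) and Hist1h4k from 0.685 and 0.658 to 2.66 and 2.03 (1.70 ± 0.39, adjusted p = 0.0226). Hist1h3d fell from 17.3 and 16.1 to 11.8 and 10.0 (-0.71 ± 0.16, adjusted p = 0.0207). Hist1h2ap had the largest value of the well counted members, 2.31 ± 0.88, but did not pass (adjusted p = 0.113). The S-phase list had 17 of 40 genes lower and the G2/M list 10 of 24, with none higher, while 1 of 11 variants was higher and 1 of 16 processing genes lower. The part of the cell cycle was not tested. No call was left with the Rpl9-ps6 set as a term or without XY WT replicate 1. Fewer members were called without XY WT replicate 2 and more without XY +KTS KO replicate 2. Such a fit leaves a single library in a group, and its calls over all genes are not given here. Without XY +KTS KO replicate 1 both higher calls, Hist1h4h (1.35) and Hist1h4k (1.60), were lost. That library also made up 97.8% of the cells of a cluster named pre-granulosa and led by Cst12, Pde10a and Gm2044, with Btg2, Fos and Foxl2 also among its leading genes. It made up 94.1% of the cells of another gonadal somatic cluster, led by Btg2, Egr1 and Fos. The part of these 2 clusters in the result was not tested.

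The effect of losing -KTS differed between the sexes for 1 member, Hist1h1b, against 2.96% of all genes. The effect in XY minus that in XX was -1.45 ± 0.32 (edgeR interaction term, adjusted p = 0.0413), made of -1.23 in XY and 0.22 ± 0.22 in XX. Of the 64 members 4 had a positive difference, called or not (median -1.10). Hist1h1a did not pass, with -1.18 ± 0.28 (adjusted p = 0.0577). In the same test 5 of 40 S-phase and 8 of 24 G2/M genes were lower and none higher. The Hist1h1b call was lost when any 1 of 7 of the 8 libraries in the comparison was left out. Without XY WT replicate 2 or without XY -KTS KO replicate 2, 2 members were called. For +KTS the difference between the sexes was called for no member (edgeR, 3.83% of all genes called, 1.81% as higher, 2 members at an unadjusted p under 0.05, 0 by DESeq2), although leaving out XY +KTS KO replicate 2 gave 2.

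Germ cells showed no called member in the 5 comparisons, which are taken in the order -KTS KO in XX and XY, +KTS KO in XX and XY, and XX against XY WT. Against WT of the same sex, edgeR called 0.0799% of all genes for -KTS KO in XX (0.0653% higher, 0.0145% lower) and 0% in XY. For +KTS KO it called 0.0799% in XX (0.0581% higher, 0.0218% lower) and 0% in XY. Between the WT sexes it called 0.467%. The numbers of members with an unadjusted p under 0.05 were 3, 7, 0, 13 and 2, and DESeq2 called 0, 1, 0, 1 and 0. In XY +KTS KO against XY WT the germ values of Hist1h2ap, 1990 and 1060 against 187 and 248, were 2.79 ± 0.91 apart on the log2 scale (adjusted p = 0.489). Hist1h1b was 0.62 ± 0.17 higher there (adjusted p = 0.437), at 653 and 413 against 334 and 354. No gene of the 4 accompanying lists was called in germ cells.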

How the data were processed

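Gonads of 12 libraries were profiled by droplet 3′ single-cell RNA sequencing. The labels name version 2 of the kit and the study's methods version 3. The files hold UMI counts per gene and barcode, which the authors deposited without normalization. Per the submitters' processing notes they came from Cell Ranger 6.0 on mm10. Its annotation release is not given in the sources used here.

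Barcodes were kept from 1000 detected genes and up to a mitochondrial share of 10%, as in the study's methods. Scrublet's own threshold marked at most 3 barcodes in 9 libraries, so the highest doublet scores were removed at 0.8% per 1000 barcodes (7447 in all). This left 76976 of 103730 barcodes. Cells were clustered without histone genes (sctransform 0.4.2, Seurat 5.3.0, 3000 variable genes, 50 components, resolution 0.8), and classes were named from marker lists. The names are rebuilt and not the authors'.

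UMI counts were summed per library and class and tested with edgeR 4.0.16 (R 4.3.3, quasi-likelihood, TMM, filterByExpr), with 6 groups in 1 fit, or library as block for comparisons within libraries. P-values were Benjamini-Hochberg adjusted over all genes tested and called under 0.05. Fold changes are TMM-scaled and can differ from CPM ratios. On data simulated for XX -KTS KO against XX WT in gonadal somatic cells (17389 genes), 45% of changes of 1 and 88% of changes of 2 on the log2 scale were recovered. For the same groups in germ cells (13505 genes) the shares were 44% and 98%. The changed genes were drawn from well counted genes, so the shares do not hold for members with few UMIs. In the germ simulation 100 genes were given each change, whereas the real comparison called 11 genes.

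Named are all members with a mean of at least 5 CPM in either class and every called member, or the 12 with the largest change where more were called. Of each accompanying list at most the 3 largest called changes are named. The members, lists and tests were chosen with earlier results of these data known. Stem-loops, poly(A) signals and shared windows were searched in GENCODE M21 transcripts of GRCm38. Alternatives were DESeq2 1.42.0, RLE size factors, no filter, a replicate block, another clustering, doublets kept, all cells summed, 4 equal parts for the S-phase ranking and leaving out each library. Fits by library set, without shallow and other-tissue clusters and with a crossed block were chosen after seeing the data.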

Additional observations from a re-analysis of the deposited data

Results flagged for a closer look

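The effect of -KTS loss on Hist1h1b, the H1.5 linker histone gene, was called as different between the sexes in gonadal somatic cells. The test called 1.56% of the members against 2.96% of all genes. The effect in XY minus that in XX was -1.45 on the log2 scale (edgeR interaction term, adjusted p = 0.0413). In XY it went from 475 and 379 CPM in WT to 198 and 176 in -KTS KO, and in XX from 278 and 207 to 281 and 263. Over 17 alternatives the value lay between -1.72 and -1.03, and the call was kept in 9 of them. It was lost in most of the fits that left out a single library.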

How the results depend on the processing

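The comparisons within libraries kept their counts of called members within 1.5-fold under each alternative run, at 47 to 52 for germ against somatic cells, 57 to 63 for S-high against S-low somatic cells and 44 to 62 in germ cells. Leaving out each library in turn gave 48 to 52, 55 to 58 and 48 to 50. The 1 reversed value was that of Hist3h2ba in S-high against S-low germ cells, which was 0.30 and with doublets kept -0.57.

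Counts between groups moved more. The numbers of all genes called under each alternative are not given beside them or beside the leave-out counts above. Whether the members moved more than other genes cannot be read from these counts. In gonadal somatic cells, XX -KTS KO against XX WT gave 2 calls, and 13 with DESeq2, 13 with no filter, 4 with log-normalized clustering, 4 with doublets kept, 4 without shallow and other-tissue clusters, 0 with the library set as a term, 0 in the low set alone and 1 with all kept cells. XY -KTS KO against XY WT gave 8, and 14 with DESeq2, 23 in the high set alone, where XY -KTS KO is a single library with the spread taken from XY WT, and 3 with all kept cells. XX +KTS KO gave 0, and 1 with no filter or all kept cells. XY +KTS KO gave 3, and 10 with DESeq2, 11 with no filter and 0 with the set as a term. XX WT against XY WT gave 3, and 5 with DESeq2 and 0 with all kept cells. The -KTS difference between the sexes gave 1, and 8 with DESeq2, 2 with RLE, 6 with no filter, 3 without shallow and other-tissue clusters, 3 with the set as a term and 0 with all kept cells. Germ comparisons gave 0, but with no filter 7 in XX -KTS KO, 16 in XY -KTS KO, 20 in XY +KTS KO and 7 between the WT sexes, with DESeq2 1 in XY -KTS KO and 1 in XY +KTS KO, and in the high set alone 2 in XY -KTS KO and 1 between the WT sexes. The cause was not tested. Leaving out each library of the groups compared gave 0 to 1 in XX -KTS KO, 4 to 14 in XY -KTS KO, 0 to 1 in XX +KTS KO, 0 to 15 in XY +KTS KO, 0 to 2 between the WT sexes, and 0 to 2 for each difference between the sexes.

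The replicate numbers share only a number, since the labels give no pairing and the correlation of same-numbered deviations ran from -0.205 to 0.298 over the 10 comparisons. With the replicate block XX -KTS KO gave 4 somatic calls, not including Hist3h2ba, XY -KTS KO 9, XX +KTS KO 0, XY +KTS KO 4, XX WT against XY WT 3, not including Hist1h2ak, and the -KTS difference between the sexes 1. With the replicate numbers of the mutant crossed, XX -KTS KO gave 1 somatic call and XY +KTS KO 0 germ calls. In counts simulated for XX -KTS KO against XX WT, with 2 libraries a group, a log2 change of 1 was recovered for 45% of the changed somatic genes. These were drawn from well counted genes, and smaller changes were not simulated.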
